A study of Mus musculus with 6 samples.

Results

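Integrins and the other receptors by which cells hold the extracellular matrix were followed in C3H10T1/2 cells, a mouse mesenchymal stem cell (MSC) line that can form bone, fat and cartilage cells. The set held 35 named genes of the 55401 in the count table: 16 integrin alpha chains, 8 integrin beta chains, the secreted beta-like protein Itgbl1, 4 syndecans, 2 discoidin domain receptors, and Cd44, Dag1, Cd47 and Cspg4. All 35 symbols were found in the table. Membership follows gene identity, not a measured value, though the set was chosen with earlier results of these data known.

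An integrin is a pair of 1 alpha and 1 beta chain that spans the membrane. The alpha chain largely sets which ligand is bound, such as the RGD motif of fibronectin and vitronectin, a collagen or a laminin, and the inner tails recruit talin, kindlin and the focal adhesion kinases. Syndecans are heparan sulphate proteoglycans that act beside integrins, and the discoidin domain receptors are tyrosine kinases switched on by collagen. In osteogenic culture, precursor cells hold first a fibronectin-rich and then a collagen-rich matrix through these receptors.

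RNA-seq libraries were made from 3 lines at 2 times, with 1 library per condition and therefore no replicate of a condition. The shControl line carried a control hairpin, the shNFIB line a hairpin against the transcription factor NFIB (gene Nfib), and the shMLL1 line one against the histone H3K4 methyltransferase MLL1 (gene Kmt2a). Day 0 was confluent, untreated culture, and day 7 was the end of 7 days in osteogenic medium (β-glycerophosphate at 20 mM, ascorbic acid 2-phosphate at 100 μg/ml, dexamethasone at 0.1 μM). Each knockdown was represented by 1 line, established in earlier work, so the line and the knockdown cannot be told apart, nor can the medium and the days in culture.

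Libraries held 21608680 to 34774066 counts. Nfib was at 116, 35.3 and 65.5 normalised counts (CPM, scaled to library size) at day 0 and at 83.5, 8.15 and 72.7 CPM at day 7 in shControl, shNFIB and shMLL1, and Kmt2a at 74.7, 86.5 and 30.9 and at 66.3, 94.0 and 34.8 CPM. Each hairpin's target was therefore lowest in its own line at both days. The 12 mesenchymal markers, among them Col1a1 and Vim, summed to 14145 to 28329 CPM at day 0 and 10229 to 12789 CPM at day 7. Their median log2 fold change was -1.02 over the 11 tested (Pdgfra rose, and Vim, Thy1 and Fn1 fell). Of the leukocyte list, Cd3e, Adgre1 and Tyrobp had 0 counts in every library. Cd68 had 38 to 217 counts, and Cd68 and Fcer1g were called higher at day 7. Of the platelet list, Gp9 and Gp6 had 0 counts in every library and Gp1bb had 4 to 15. All 10 proliferation markers fell from day 0 to day 7, their sum from 1999 to 2744 CPM to 253 to 365 CPM, and the 6 endothelial markers summed to 12.03 to 27.6 CPM at day 0 and 3.51 to 6.39 CPM at day 7, with Tek and Vwf called lower and Kdr and Cdh5 at 0 to 3 counts. Of the 8 adipocyte markers, Lpl, Cidec and Plin1 were called higher at day 7, but mainly in shControl, at 35.6, 22.3 and 15.5 CPM against at most 1.15 CPM in each of the other 5 libraries. The part of these lists in the day and line results was not tested. In bulk RNA, fewer cells of a type and less RNA per cell cannot be told apart.

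Throughout, 3 values in a row are in the order shControl, shNFIB, shMLL1, and CPM are scaled by trimmed mean of M-values (TMM) factors. Levels are compared between genes only as CPM per kilobase of exon.

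The upstream sequence is shown for 5 receptors on which the results turn: Itga8 and Cspg4, with a large difference between days, and Itga1, Itga11 and Itgb8, with wide differences between lines. Each run is the 250 bases before the RefSeq transcription start in GRCm38.p6, 5′ to 3′ on the gene's strand. Capitals mark the half-site TTGGC of the nuclear factor I family, to which NFIB belongs, read on either strand.
Itga8 (chr2:12301945-12302194, minus strand): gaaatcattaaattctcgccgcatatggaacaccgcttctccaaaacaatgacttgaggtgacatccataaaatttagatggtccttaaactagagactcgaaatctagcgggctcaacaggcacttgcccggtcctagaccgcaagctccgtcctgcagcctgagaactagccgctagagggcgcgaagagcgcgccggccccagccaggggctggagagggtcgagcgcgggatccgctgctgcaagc
Cspg4 (chr9:56864854-56865103, plus strand): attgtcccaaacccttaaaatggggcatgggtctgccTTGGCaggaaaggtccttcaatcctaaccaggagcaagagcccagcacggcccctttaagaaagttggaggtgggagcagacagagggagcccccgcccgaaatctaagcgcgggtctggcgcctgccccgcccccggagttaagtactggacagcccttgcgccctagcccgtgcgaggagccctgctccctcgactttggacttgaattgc
Itga1 (chr13:115101965-115102214, minus strand): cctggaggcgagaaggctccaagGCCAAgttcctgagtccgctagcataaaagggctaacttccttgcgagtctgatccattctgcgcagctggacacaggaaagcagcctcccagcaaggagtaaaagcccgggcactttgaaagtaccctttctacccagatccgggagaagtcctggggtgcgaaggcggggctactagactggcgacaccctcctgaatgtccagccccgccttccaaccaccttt
Itga11 (chr9:62677605-62677854, plus strand): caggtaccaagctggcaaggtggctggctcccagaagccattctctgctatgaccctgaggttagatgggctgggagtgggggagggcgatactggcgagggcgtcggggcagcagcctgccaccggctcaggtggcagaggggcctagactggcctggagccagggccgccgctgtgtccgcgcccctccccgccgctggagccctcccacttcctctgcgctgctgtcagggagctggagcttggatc
Itgb8 (chr12:119238277-119238526, minus strand): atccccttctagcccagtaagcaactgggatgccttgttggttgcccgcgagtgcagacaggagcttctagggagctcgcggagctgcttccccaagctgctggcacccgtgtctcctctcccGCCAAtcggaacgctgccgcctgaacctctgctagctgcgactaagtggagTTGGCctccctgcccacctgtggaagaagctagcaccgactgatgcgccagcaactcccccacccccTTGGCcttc
Cspg4 and Itga1 held 1 half-site each, Itgb8 held 3, and Itga8 and Itga11 held none in this window. The start used for Itgb8 lay 526 bases from the start of its principal transcript in the annotation, and those of the other 4 within 71 bases of theirs. Windows were found for 28 of the 35 genes, and 10 of these (35.7%) held the half-site, against 41.5% of all 32851 RefSeq windows. For each of the 28 the window nearest the principal start was taken, which for Itga9 lay 105002 bases away. The full set of windows also holds further starts of the same gene, so these shares are not of like sets. The paired site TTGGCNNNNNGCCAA and the glucocorticoid response element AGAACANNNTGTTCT, the site of the receptor that dexamethasone binds, were in none of the 28 and in 0.0365% and 0.00913% of all windows. The GC box GGGCGG was in 14 of the 28 (50.0%) and in 32.7% of all windows, and the AP-1 site TGANTCA was in 1 of the 28 (that of Itgax) and in 6.75% of all. Both strands were read, overlapping matches were counted, and each paired site also holds half-sites. A match is a string of letters, not a shown binding site. Itga6, Itga7, Itgae, Itgb2, Itgb3, Itgb4 and Sdc2 had no window in the table.

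Among the alpha chains, Itga5, the alpha chain of the main fibronectin receptor, was the most abundant in every library. Its level per kilobase was 44.3, 64.9 and 34.3 CPM at day 0 and 37.6, 64.0 and 43.2 CPM at day 7, which was 58.0, 61.4 and 62.0% of the alpha chains' summed level at day 0 and 70.3, 77.2 and 71.3% at day 7. Itgav, the alpha chain of the vitronectin receptors, came next with 21.9, 24.5 and 16.8% at day 0 and 12.2, 15.2 and 10.0% at day 7. These RGD-binding chains together made up 78.8 to 92.4% of the alpha chain level, and the collagen-binding chains 1.44 to 6.63%.

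The order of the lesser chains differed between the days. Itga6, a laminin receptor chain, held 10.2, 9.05 and 9.22% of the alpha chain level at day 0 and 1.51, 0.606 and 0.787% at day 7, below Itga2b, which stood at 4.72, 2.06 and 5.95% at day 7, and below Itga3 at 2.70, 2.14 and 2.12%. Itga8, Itga10 and Itga2b each took a larger share at day 7 than at day 0 in each line, up to 3.18, 3.29 and 5.95% in shMLL1. Itgb1, the common partner of most of these alpha chains, made up 81.9, 79.7 and 75.4% of the beta chain level at day 0 and 79.5, 82.3 and 79.7% at day 7, and Itgb5 most of the rest. Itgb8 was at 4.30% in shMLL1 at day 7 and at 0.325 to 1.22% in the other 5 libraries. The ratio of the summed beta to the summed alpha level was 4.36, 4.17 and 3.92 at day 0 and 2.86, 3.22 and 1.99 at day 7, with no overlap between the days. These shares rest on the union of annotated exons as each gene's length and were not tested, since each condition had 1 library.

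**Figure D1:**
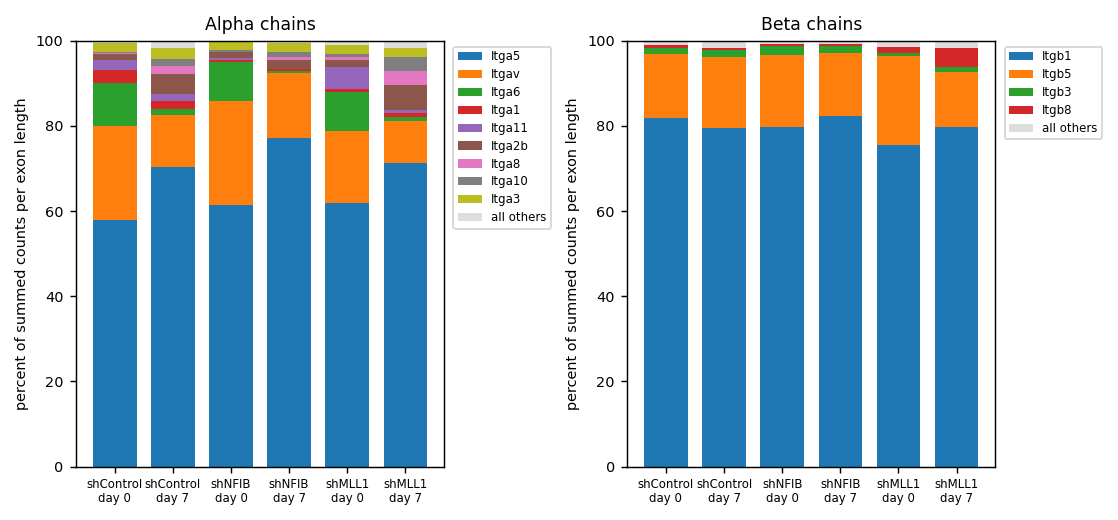
Share of each integrin chain in the summed CPM per kilobase of exon of the alpha chains (left) and beta chains (right), in percent, 1 bar per library. Itga5 and Itgav fill 78.8 to 92.4% of every alpha bar, the Itga6 band is present at day 0 and nearly gone at day 7, and the Itgb8 band is widest in shMLL1 at day 7.

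**Figure D2:**
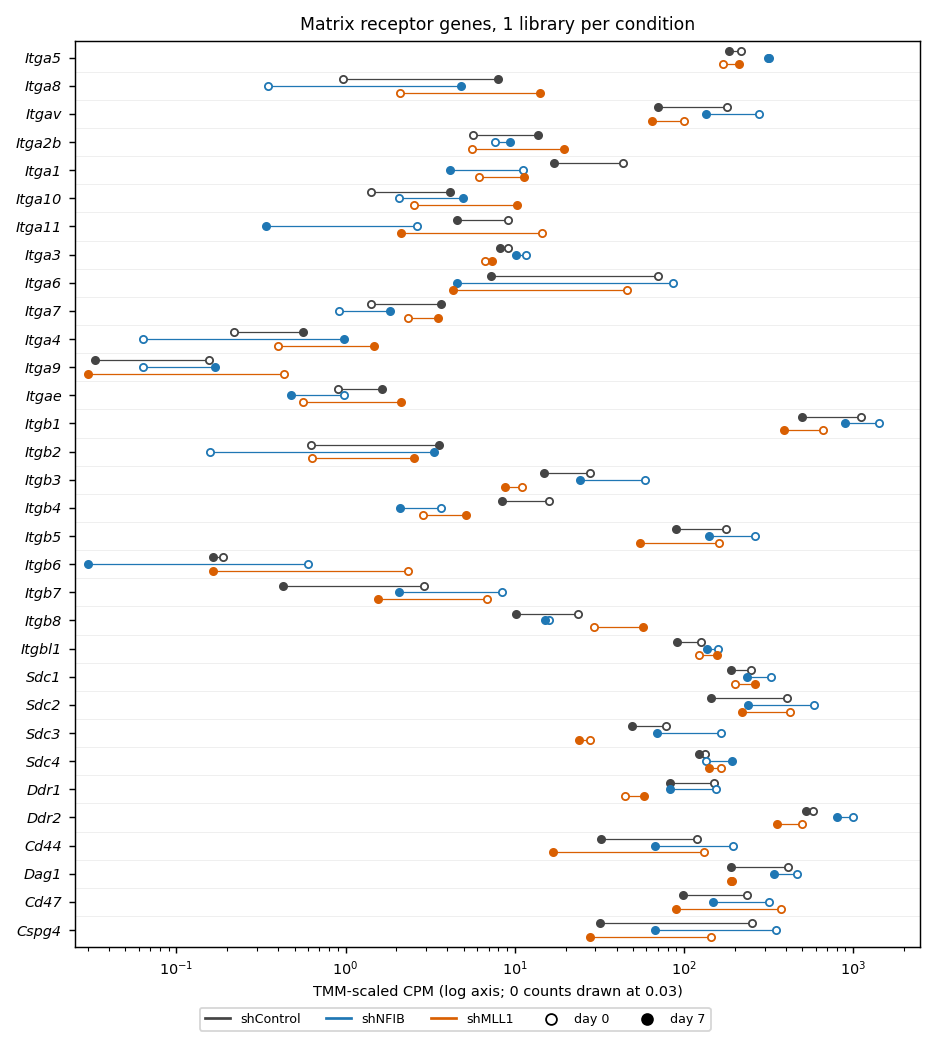
TMM-scaled CPM of the 32 receptor genes with at least 10 counts in some library (log axis), open circles for day 0 and filled circles for day 7, joined by a line within each cell line. The 3 day 7 points lay above the 3 day 0 points for 5 genes, such as Itga8, and below them for 8, such as Itga6 and Cspg4. Over all 18152 genes with as many counts the shares were 23.2% above and 20% below.

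The first comparison asked which receptors differed between day 7 of osteogenic medium and day 0 over the 3 lines. Integrin genes moved both ways: Itga8, Itgb2, Itga4, Itga10 and Itga2b rose, and Itga6, Itgb7, Itga11, Itgb5 and Itgav fell. Of the 11 other genes none rose, and Cspg4, Cd44, Cd47 and Sdc2 fell. In all, 5 of the 31 genes tested rose and 9 fell, against 13.8% and 10.8% of all 16742 genes tested, and the median log2 fold change was -0.49 against -0.0047 over all genes. The test was edgeR's quasi-likelihood test with a term for the line, a Benjamini-Hochberg adjusted p of at most 0.05 over all genes and a fold change over 2. With 1 library per condition, the spread behind it is how far the 6 libraries depart from a line effect plus a day effect, which leaves 2 residual degrees of freedom. Itga2, Itga9, Itgam and Itgax were too low to be tested.

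Of the RGD-binding alpha chains, Itga8, which pairs with Itgb1 and binds nephronectin, was at 0.970, 0.348 and 2.09 CPM at day 0 and 8.004, 4.804 and 14.2 CPM at day 7. Every day 7 value was above every day 0 value, and the log2 fold change was 3.13 (SE 0.35, adjusted p = 0.0013). Itga8 (ENSMUSG00000026768) lies at chr2:12106632-12301922 of GRCm38 on the minus strand, and 5.05% of its exon bases are shared with an opposite-strand noncoding gene of 0 to 13 counts. Itga2b, the platelet fibrinogen receptor chain, was at 5.63, 7.66 and 5.57 CPM at day 0 and 13.8, 9.34 and 19.7 CPM at day 7, again with no overlap between the days. Its log2 fold change was 1.121 (SE 0.32, adjusted p = 0.0345), and the call was lost without the shControl line (1.05, adjusted p = 0.156) and without the shMLL1 line (0.82, adjusted p = 0.0886). The 5 platelet markers summed to 0.364 to 0.823 CPM over the 6 libraries, with Gp9 and Gp6 at 0.

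Itgav went the other way, from 179, 278 and 99.8 CPM to 70.3, 135 and 65.1 CPM, lower at day 7 within each line although the day 7 value of shNFIB was above the day 0 value of shMLL1. Its log2 fold change of -1.02 (SE 0.21, adjusted p = 0.0123) was just past the 2-fold limit, and it was no longer called without the shControl line (-0.84, adjusted p = 0.125), without the shNFIB line (-0.99, adjusted p = 0.0315) or when scaled by library size alone (-0.87). Itga5 was at 218, 319.9 and 169 CPM at day 0 and 186, 316 and 213 CPM at day 7 (log2 fold change 0.01, SE 0.21, adjusted p = 0.968).

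The collagen-binding alpha chains, all partners of Itgb1, did not move as a group. Itga10, a chondrocyte collagen receptor chain, was at 1.41, 2.06 and 2.55 CPM at day 0 and 4.13, 4.94 and 10.3 CPM at day 7, above day 0 in every library, with a log2 fold change of 1.60 (SE 0.31, adjusted p = 0.00975). Without the shControl line the value was 1.63 (adjusted p = 0.0508), and 33.5% of its exon bases are shared with a same-strand gene model, whose reads cannot be told apart from its own. Itga11, a fibrillar collagen receptor chain of mesenchymal cells, was at 9.11, 2.63 and 14.5 CPM at day 0 and 4.56, 0.338 and 2.13 CPM at day 7. It was lower at day 7 within each line, with a log2 fold change of -2.18 (SE 0.46, adjusted p = 0.0122), and the days overlapped, with the shNFIB line low at both. Itga1, the receptor chain for type IV collagen, was at 43.4, 11.2 and 6.13 CPM at day 0 and 17.1, 4.13 and 11.4 CPM at day 7 and was not called (log2 fold change -0.68, SE 0.45, adjusted p = 0.274), with the shMLL1 line higher and the other lines lower at day 7. Itga2 had 2 to 6 counts.

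Of the laminin-binding chains, Itga6 gave the steepest fall of the whole set. It was at 70.5, 86.3 and 46.1 CPM at day 0 and 7.28, 4.53 and 4.30 CPM at day 7, which in each line was 9.68, 19.0 and 10.7-fold lower at day 7. The log2 fold change of Itga6 (ENSMUSG00000027111, chr2:71745616-71858416) was -3.66 (SE 0.26, adjusted p = 0.000358). Itga3 stood at 9.08, 11.6 and 6.66 CPM at day 0 and 8.23, 10.1 and 7.34 CPM at day 7 (log2 fold change -0.08, SE 0.24, adjusted p = 0.81), with a day difference within counting error in each line. Itga7, best known from muscle, was at 1.41, 0.918 and 2.35 CPM at day 0 and 3.67, 1.83 and 3.52 CPM at day 7, higher at day 7 within each line, and missed the call (log2 fold change 0.97, SE 0.37, adjusted p = 0.0766).

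Among the chains known mainly from leukocytes, Itga4 was low, with 7, 2 and 12 counts at day 0 and 17, 29 and 36 counts at day 7. It was called higher at day 7 (log2 fold change 2.18, SE 0.65, adjusted p = 0.0373), and the call was lost without any one of the 3 lines (adjusted p = 0.0522 without shControl, 0.107 without shNFIB and 0.0539 without shMLL1). Cerkl, on the opposite strand, shares 8.04% of the exon bases of Itga4. Itgae, which pairs with Itgb7 to bind E-cadherin, had 29, 31 and 17 counts at day 0 and 50, 14 and 52 counts at day 7 and was not called (log2 fold change 0.61, SE 0.61, adjusted p = 0.464). Itga9, grouped with Itga4 and not as a leukocyte chain, had 0 to 13 counts. Itgam had 0 or 1 count and Itgax 0 in every library, and 3 counts of a library are 0.0939 to 0.123 CPM. A same-strand gene model, Gm49368, listed at 0, shares 68.7% of the exon bases of Itgam, and gene-level counting can leave out reads in shared exons, so its low count does not show absence.

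Of the 8 beta chains, 1 rose and 2 fell. Itgb2, the beta chain of the leukocyte integrins, was at 0.626, 0.158 and 0.630 CPM at day 0 and 3.58, 3.32 and 2.54 CPM at day 7, with no overlap between the days and a log2 fold change of 2.82 (SE 0.55, adjusted p = 0.0092). Its alpha partners Itgam and Itgax had 0 or 1 count, Itgam with the overlap given above. The leukocyte markers summed to 1.74 to 2.95 CPM at day 0 and 5.07 to 9.18 CPM at day 7. Most of this was Cd68, at 1.94, 1.20 and 2.19 CPM at day 0 and 7.12, 3.99 and 7.58 CPM at day 7. Cd68 and Fcer1g were called higher, and Csf1r went from 6, 7 and 3 counts to 26, 11 and 15. Lyz2 went from 14, 2 and 8 counts to 13, 5 and 3. Ptprc was at 0 to 3 counts, and Cd3e, Adgre1 and Tyrobp were at 0 in every library. The part of that list in the result for Itgb2 was not tested. Itgb7, the other leukocyte beta chain, was at 2.91, 8.39 and 6.83 CPM at day 0 and 0.426, 2.06 and 1.56 CPM at day 7 and fell (log2 fold change -2.29, SE 0.34, adjusted p = 0.00376).

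Itgb5, a partner of Itgav, was at 178, 264 and 161 CPM at day 0 and 90.2, 141 and 55.3 CPM at day 7, below day 0 in every library. Its log2 fold change was -1.15 (SE 0.23, adjusted p = 0.00968), and without the shMLL1 line -0.91, which is under the fold limit. Itgb1 was at 1113, 1431 and 668 CPM at day 0 and 497, 897 and 391 CPM at day 7, and Itgb3, the partner of Itgav and Itga2b, was at 27.8, 58.8 and 11.1 CPM at day 0 and 14.96, 24.4 and 8.73 CPM at day 7. Itgb1 passed the adjusted p but not the fold limit (log2 fold change -0.88, SE 0.25, adjusted p = 0.0349), as did Itgb3 (log2 fold change -0.86, SE 0.23, adjusted p = 0.0271) and Sdc3 (log2 fold change -0.73, SE 0.23, adjusted p = 0.0433). Itgb6, an epithelial chain, had 6, 19 and 71 counts at day 0 and 5, 0 and 4 counts at day 7 and was not called (log2 fold change -2.90, SE 1.02, adjusted p = 0.06). Itgb4, the Itga6 partner of hemidesmosomes (log2 fold change -0.33, SE 0.40, adjusted p = 0.548), and Itgb8 (log2 fold change -0.10, SE 0.38, adjusted p = 0.852) differed in direction between the lines. The 6 epithelial markers summed to 6.14 to 9.14 CPM at day 0 and 0.203 to 1.18 CPM at day 7, nearly all of it Cdh1, with Epcam and Krt18 at 0 in every library, and their part in the values of Itgb4 and Itgb6 was not tested.

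The other matrix receptors were lower at day 7 or not called. Cspg4, the proteoglycan NG2 that marks pericytes and other mesenchymal precursors, was at 254, 352 and 145 CPM at day 0 and 32.0, 67.8 and 27.7 CPM at day 7. Its log2 fold change was -2.60 (SE 0.23, adjusted p = 0.000569), the next steepest fall among the genes called after that of Itga6, and the levels at the 2 days did not overlap. Cd44, the hyaluronan receptor, was at 119, 195 and 132 CPM at day 0 and 32.2, 67.4 and 16.9 CPM at day 7 (log2 fold change -2.13, SE 0.32, adjusted p = 0.00365). Cd47, the integrin-associated thrombospondin receptor, was at 237, 318 and 373 CPM at day 0 and 99.3, 149.6 and 89.2 CPM at day 7 (log2 fold change -1.48, SE 0.27, adjusted p = 0.00758). Sdc2 was at 407, 591 and 424 CPM at day 0 and 145, 240.3 and 219 CPM at day 7 (log2 fold change -1.26, SE 0.23, adjusted p = 0.0071). All 3 were lower at day 7 in every library than at day 0 in any, and the call of Sdc2 was lost without the shControl line (-1.13, adjusted p = 0.0838).

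Not called were Sdc1 at 190.4 to 329 CPM over the 6 libraries (-0.18, adjusted p = 0.589), Sdc4 at 123 to 193 CPM (0.04, adjusted p = 0.909), and Itgbl1 at 91.5 to 158 CPM (-0.12, adjusted p = 0.689). Ddr2, the receptor for fibrillar collagen that is the more abundant of the pair per kilobase, stayed between 355 and 999 CPM (-0.32, adjusted p = 0.317), and Ddr1 was not called either (-0.49, adjusted p = 0.199). Dag1, the dystroglycan precursor that binds laminin, was at 410.3, 464 and 191 CPM at day 0 and 189, 342 and 193 CPM at day 7 (-0.53, adjusted p = 0.16), lower at day 7 in shControl and shNFIB and level in shMLL1. Over the 32 genes with at least 10 counts in some library, the 3 day 7 values lay above the 3 day 0 values for 5 and below them for 8, against 23.2% and 20% of 18152 genes.

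**Figure D3:**
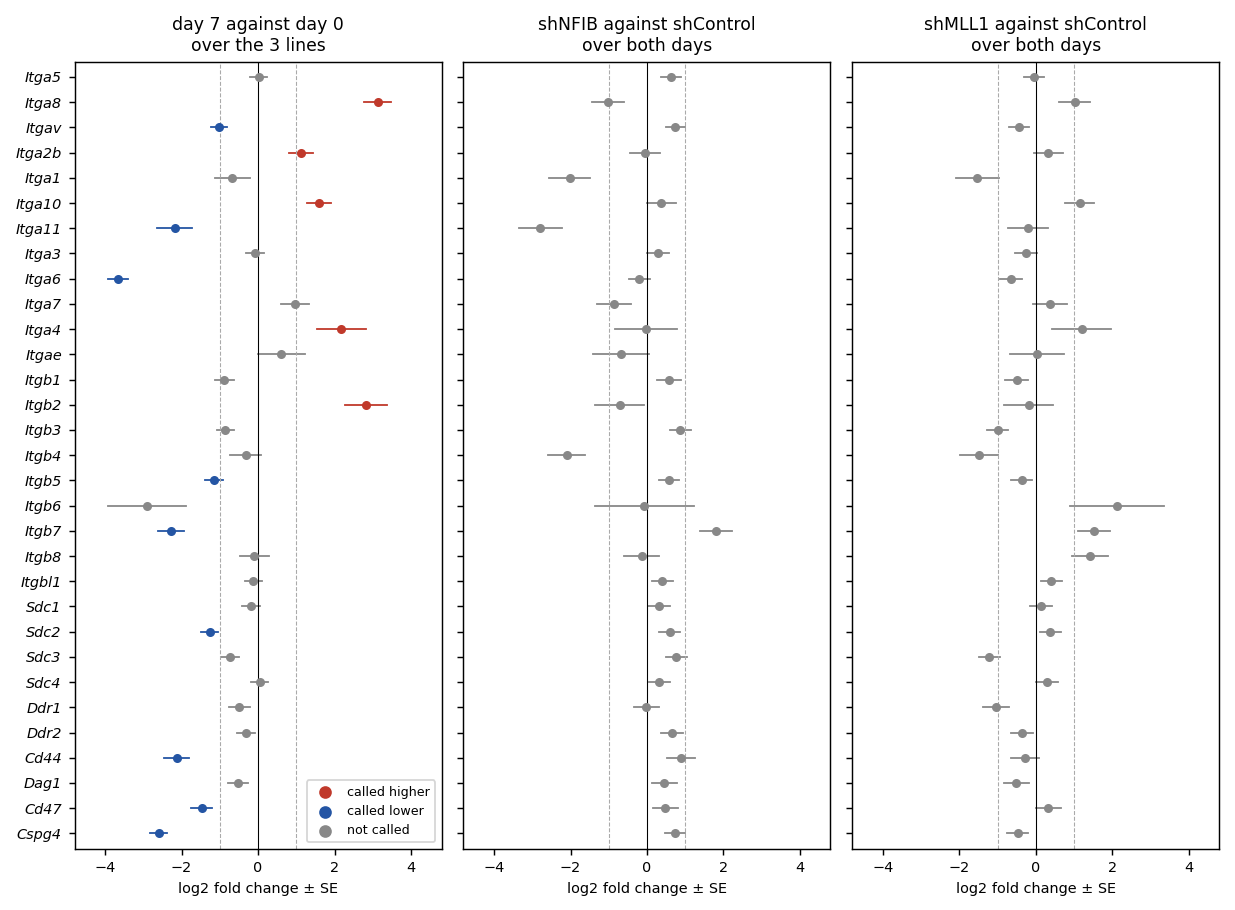
Log2 fold changes with SE from the fit over all 6 libraries for the 31 receptor genes tested, by day (left) and by knockdown line (middle and right); dashed lines mark a 2-fold change, and colour marks a call at an adjusted p of at most 0.05 with a fold over 2. In the left panel 5 genes are called higher and 9 lower, and in the other panels none is called.

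The day ratios were also taken line by line. A ratio between single libraries has no replicate check, so each is given with a 95% Clopper-Pearson interval that covers counting error only, and a gene was compared where 1 of its 2 libraries had at least 10 counts. In shControl, 6 of 30 genes compared were at least 2-fold higher at day 7 and 11 at least 2-fold lower, against 23% and 14.9% of all genes compared. In shNFIB, 4 of 31 were higher and 13 lower, against 16.6% and 13.9%. In shMLL1, 6 of 32 were higher and 9 lower, against 25.8% and 19.9%. The median log2 ratio was -0.88 in shControl, -0.81 in shNFIB and -0.10 in shMLL1, against -0.00071, -0.032 and 0.042 over all genes. Scaling by library size alone adds 0.21 to every shMLL1 ratio, which gives 9 higher and 9 lower and a median of 0.10.

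Of the genes compared, the ratio was above 0 for 7 of 30 in shControl, 7 of 31 in shNFIB and 16 of 32 in shMLL1. Itgb8, which pairs with Itgav to release active TGF-β, was at 23.5, 15.8 and 29.3 CPM at day 0 and 10.2, 15.2 and 57.2 CPM at day 7. Its day 7 to day 0 log2 ratio was -1.21 (95% counting interval -1.41 to -1.02) in shControl, -0.06 (95% counting interval -0.25 to 0.13) in shNFIB and 0.97 (95% counting interval 0.85 to 1.09) in shMLL1. On the log2 scale the response in shMLL1 was above that in shControl by 2.18 (interval 1.95 to 2.41), and the response in shNFIB was above it by 1.15 (interval 0.89 to 1.42). The 3 responses of Itga1 were -1.35, -1.44 and 0.89, a difference of 2.24 (interval 1.93 to 2.54) between shMLL1 and shControl. For Itgb4 that difference was 1.79 (interval 1.34 to 2.24), for Ddr1 1.24 (interval 1.11 to 1.37), for Dag1 1.13 (interval 1.06 to 1.20) and for Itgae 1.07 (interval 0.04 to 2.10). Itga1, Itgb4, Ddr1 and Dag1 were also below shControl in shMLL1 at day 0, and both differences use that day 0 library.

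Other receptors had a steeper day ratio in shMLL1. The response of Itga11 was below that of shControl by more than 1 on the log2 scale, at -1.77 (interval -2.28 to -1.27), as was that of Cd44, at -1.08 (interval -1.26 to -0.90), and of Itgb6, at -3.65 (interval -5.89 to -1.40) from 71 to 4 counts. In all, 9 of 31 genes compared differed by over 1 in shMLL1, 6 above and 3 below, against 10.5% and 9.83% of all genes compared, and 5 of 29 in shNFIB, 2 above and 3 below, against 5.22% and 10.6%. In shNFIB, Itgb2 (1.87, interval 0.41 to 3.34) and Itgb8 were above, and Itga11 (-1.96, interval -2.95 to -0.97), Itgae (-1.90, interval -3.03 to -0.78) and Itga2b (-1.005, interval -1.36 to -0.65) below. Both knockdown lines are set against the same shControl libraries, and 6 libraries leave no degrees of freedom for a test of line by day.

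**Figure D4:**
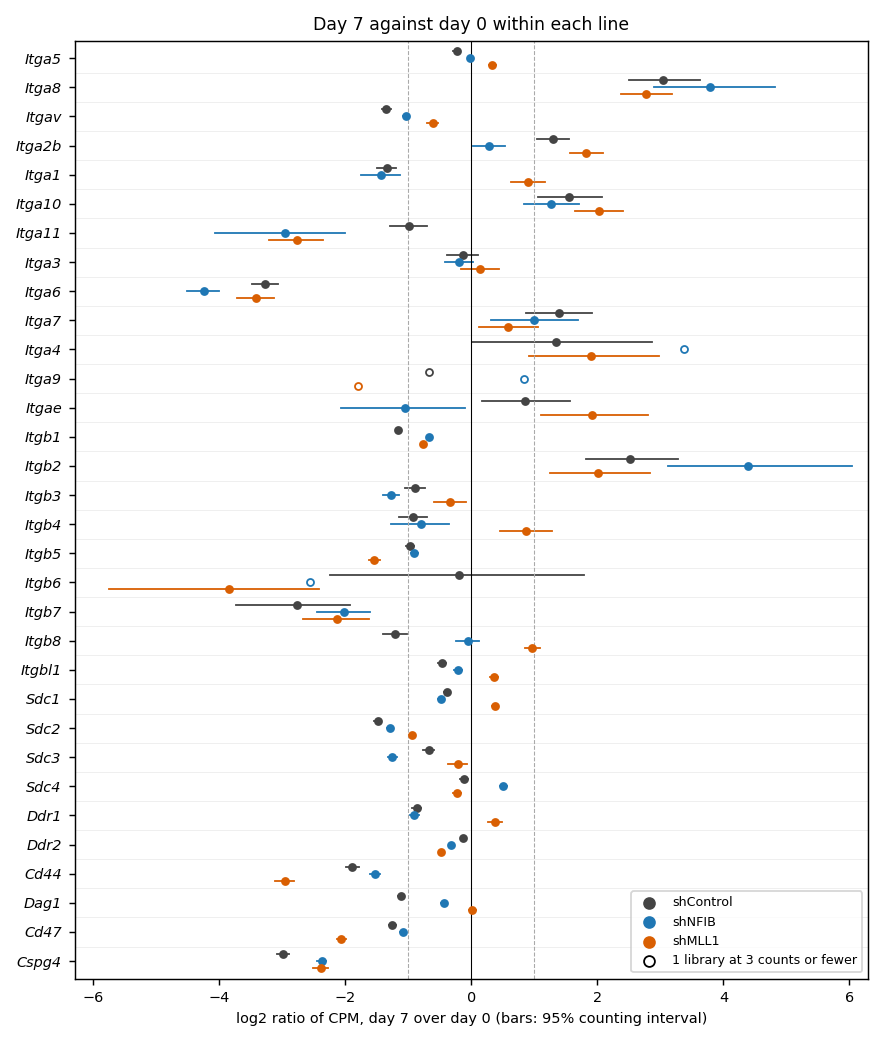
Log2 ratio of CPM, day 7 over day 0, for each receptor gene in each line, with 95% counting intervals as bars, dashed lines at a 2-fold ratio, and open circles without a bar where 1 library had 3 counts or fewer, which were raised to 3. Itga6 and Cspg4 lie left of the dashed line in all 3 lines and Itga8 to the right, while the shMLL1 points of Itga1, Itgb4 and Itgb8 lie on the other side of 0 from those of shControl.

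The second comparison asked how the receptors stood in the cells depleted of NFIB. Over both days, Itga11, Itgb4 and Itga1 had the largest negative values and Itgb7 the largest positive one, but none of the 31 genes tested was called by the quasi-likelihood test, against 0.113% of all genes higher and 0.305% lower. Unadjusted p was under 0.05 for 11 of the 31 and for 2077 of 16742 genes, and DESeq2's Wald test called 1 higher and 3 lower, against 1.55% and 1.79% of all genes. The median log2 fold change was 0.33 against 0.0039 over all genes. For the 11 genes other than integrin chains, 10 values were above 0 and 1 below, with a median of 0.48.

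The values of the 4 that DESeq2 called can be read library by library. Itga11 was 3.47-fold lower in shNFIB than in shControl at day 0 and 13.5-fold lower at day 7, where 10 counts were left, and the fit gave -2.79 (SE 0.57, adjusted p = 0.118). Itga1 (upstream sequence above) was 3.87 and 4.14-fold lower (log2 fold change -2.02, SE 0.54, adjusted p = 0.196), and Itgb4 4.35 and 3.99-fold lower (log2 fold change -2.10, SE 0.49, adjusted p = 0.146). Itgb7 was 2.88 and 4.84-fold higher (log2 fold change 1.80, SE 0.42, adjusted p = 0.142). Each of the 4 had the same direction at both days, with counting intervals clear of a ratio of 1. They were picked by a call over these same days, which favours such agreement, and the intervals leave out the spread between cultures. In DESeq2 the adjusted p was 0.000234 for Itga11, 0.0131 for Itga1, 0.00352 for Itgb4 and 0.00757 for Itgb7. The quasi-likelihood test also called these genes without the shMLL1 day 0 library and without the shMLL1 day 7 library. Either way the shMLL1 library left is fitted exactly by its own term. Both fits therefore compare shNFIB with shControl on the same libraries and are not independent of each other. Over all genes those fits, with 1 residual degree of freedom left, called 2.45% higher and 2.41% lower, and 2.08% and 2.23%. Without the shControl day 0 library it called Itga11 (adjusted p = 0.00935, against 0.597% of all genes lower), but shControl was then its day 7 library alone, assumed to vary like the other lines.

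At day 0, 4 of 30 genes compared were at least 2-fold higher in shNFIB than in shControl and 5 at least 2-fold lower, against 7.36% and 6.33% of all genes compared. At day 7, 3 of 30 were higher and 5 lower, against 8.08% and 13.3%. Scaled by library size alone, 2 were higher and 5 lower at day 0 and 1 higher and 5 lower at day 7. The most abundant chains were higher in shNFIB at day 7: the log2 ratio was 0.77 (95% counting interval 0.72 to 0.81) for Itga5, 0.94 (95% counting interval 0.87 to 1.02) for Itgav and 0.85 (95% counting interval 0.83 to 0.88) for Itgb1. Itgb3 was 2.11-fold higher at day 0 and 1.63-fold at day 7 (log2 fold change 0.87, SE 0.28, adjusted p = 0.266), and Sdc3 2.09 and 1.40-fold (log2 fold change 0.76, SE 0.28, adjusted p = 0.337). Cd44 and Cspg4, although lower at day 7 than at day 0 in this line too, were 2.09 and 2.12-fold above shControl at day 7. Itgae was 3.46-fold lower there, with 14 against 50 counts, and Itga8 was below shControl at both days, at -1.48 from 11 counts at day 0 and -0.74 at day 7 (log2 fold change -1.03, SE 0.42, adjusted p = 0.381). Itgb2 was 3.95-fold lower at day 0 with 5 against 20 counts and within counting error of shControl at day 7.

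The third comparison asked the same of the cells depleted of MLL1. Over both days Sdc3 had the smallest p, and again none of the 31 genes was called, against 0.0119% of all genes higher and 0.0179% lower. Unadjusted p was under 0.05 for 9 of the 31 and for 1540 of 16742 genes, and DESeq2 called Itgb7 higher and Sdc3 lower, against 1.18% and 1.51% of all genes. The median log2 fold change was -0.19 against 0.021 over all genes. In contrast to shNFIB, 6 of the 11 genes other than integrin chains had values below 0.

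Sdc3, the syndecan best known from the nervous system, was below shControl in shMLL1, 2.83-fold at day 0 and 2.06-fold at day 7 (log2 fold change -1.22, SE 0.28, adjusted p = 0.192, and adjusted p = 0.02 in DESeq2). The values of Sdc3 were 78.9, 165 and 27.8 CPM at day 0 and 49.2, 68.9 and 23.9 CPM at day 7, the lowest in shMLL1 at each day. Itgb3 was 2.51 and 1.71-fold lower (log2 fold change -1.001, SE 0.28, adjusted p = 0.282). Itgb7 was 2.34 and 3.65-fold higher (log2 fold change 1.53, SE 0.42, adjusted p = 0.27, and adjusted p = 0.0491 in DESeq2), so that it stood above shControl in both knockdown lines, which share that control.

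Several genes were low in shMLL1 mainly at day 0. Itga1 was 7.08-fold below shControl at day 0, with a log2 ratio of -0.59 left at day 7. Itgb4 was 5.60-fold lower at day 0 and 1.62-fold lower at day 7, and Ddr1 3.37 and 1.43-fold. Dag1 was 2.15-fold lower at day 0 and within counting error of shControl at day 7. The fit over both days gave -1.53 (SE 0.55, adjusted p = 0.453) for Itga1, -1.49 (SE 0.49, adjusted p = 0.388) for Itgb4 and -1.05 (SE 0.34, adjusted p = 0.374) for Ddr1. Without the shMLL1 day 7 library, shMLL1 was the day 0 library alone, assumed to vary like the other lines, so that the fit restates its low day 0 values. It then called 5 genes lower, against 1.96% of all genes: Itga1 (adjusted p = 0.00168), Ddr1 (0.00843), Itgb4 (0.0127), Sdc3 (0.0154) and Itgb3 (0.0311). Without the shNFIB day 7 library, the shNFIB library left is fitted exactly by its own term. The shMLL1 line is then compared with shControl on the same libraries as in the main fit. On these the fit called Sdc3 (adjusted p = 0.0318, against 1.2% of all genes lower), which is not independent of the main fit. Without the shMLL1 day 0 library, which leaves the day 7 library alone under the same assumption, it called Itgb8 higher (adjusted p = 0.00566, against 1.11% of all genes higher).

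Itgb8 had the widest ratio at day 7, 5.63-fold above shControl against 1.24-fold at day 0 (log2 fold change 1.42, SE 0.47, adjusted p = 0.395 over both days). Itga10 was 2.50-fold above shControl at day 7 (log2 fold change 1.14, SE 0.38, adjusted p = 0.393), and Itga4 2.65-fold, with 36 against 17 counts. Itgb6 had 71 counts in shMLL1 at day 0 against 6 in shControl, a ratio of 12.5-fold, and 4 against 5 at day 7. Itga11 was 1.60-fold higher at day 0 and 2.14-fold lower at day 7. In all, 4 of 32 genes compared were at least 2-fold higher and 6 at least 2-fold lower in shMLL1 at day 0, against 11.1% and 9.4% of all genes compared, and 4 of 30 were higher and 2 lower at day 7, against 8.59% and 7.16%. Scaled by library size alone, the day 7 counts were 4 higher and 0 lower.

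**Figure D5:**
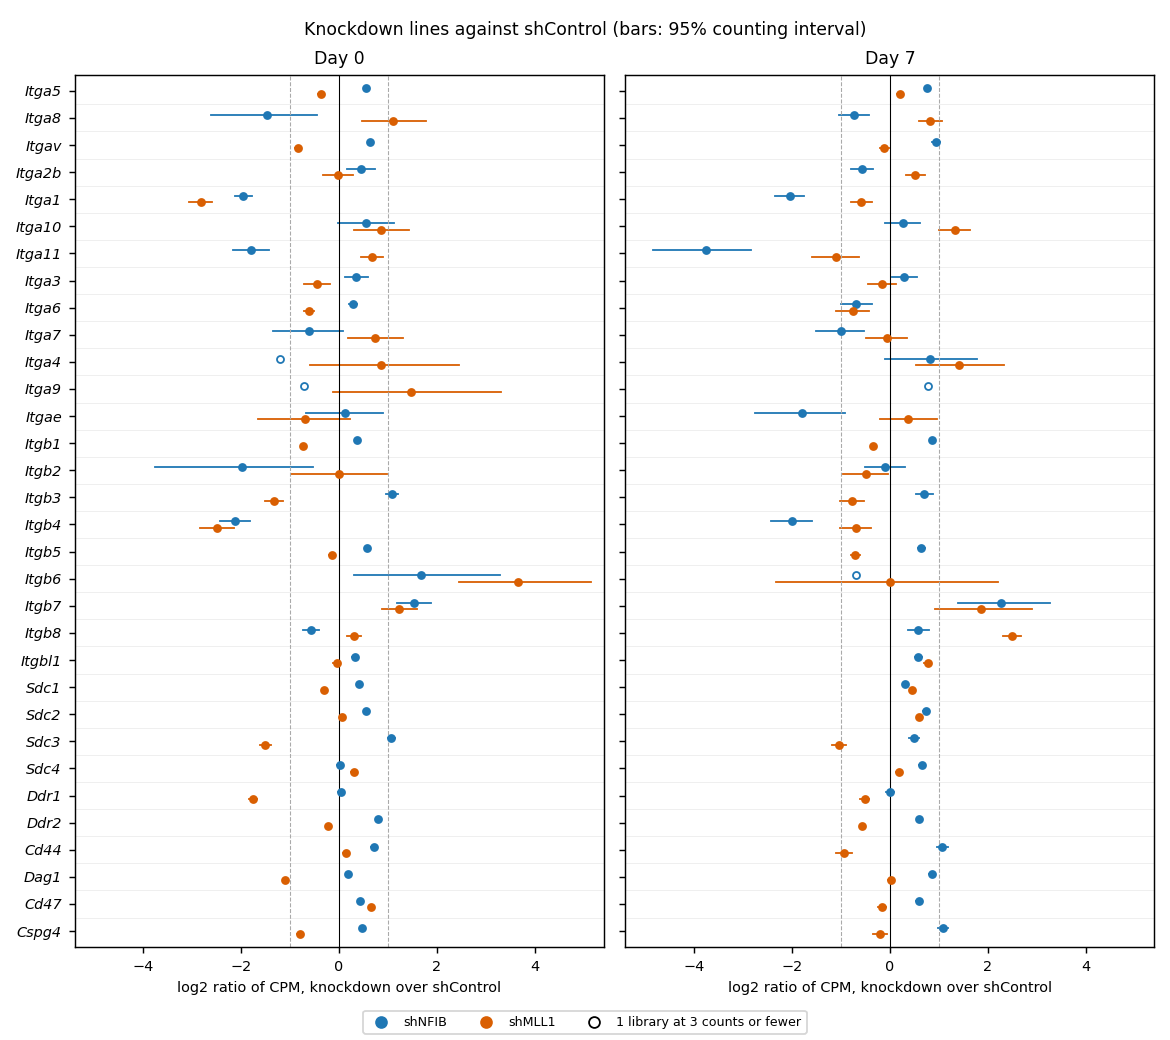
Log2 ratio of CPM, knockdown line over shControl at the same day, for each receptor gene at day 0 (left) and day 7 (right), with 95% counting intervals as bars and open circles without a bar where 1 library had 3 counts or fewer, which were raised to 3. Itga1 and Itgb4 lie left of the 2-fold line in both knockdown lines at day 0 and in shNFIB alone at day 7, and Itgb8 in shMLL1 lies far to the right at day 7.

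The partners of these receptors inside and outside the cell were described from 2 lists. Of 41 integrin adaptor and focal adhesion genes, 40 were tested, 4 rose and 3 fell from day 0 to day 7, against 13.8% and 10.8% of all genes, with a median log2 fold change of -0.26. The risers were Lims2 (log2 fold change 2.76, SE 0.28, adjusted p = 0.000924), a PINCH adaptor of integrin-linked kinase at 2.10, 2.53 and 1.29 CPM at day 0 and 11.2, 18.3 and 10.8 CPM at day 7, then Tns1 (log2 fold change 1.99, SE 0.36, adjusted p = 0.00734), the tensin of fibrillar adhesions, Fermt3 (log2 fold change 1.36, SE 0.44, adjusted p = 0.0482), the kindlin of blood cells at 0.475 to 2.05 CPM, and Fblim1 (log2 fold change 1.05, SE 0.32, adjusted p = 0.0427), a filamin-binding partner of kindlin. Those that fell were the kinase Fyn (log2 fold change -1.55, SE 0.23, adjusted p = 0.00347), the actin crosslinker Actn4 (log2 fold change -1.38, SE 0.21, adjusted p = 0.00423) and Lims1 (log2 fold change -1.03, SE 0.20, adjusted p = 0.0101), the paralog of Lims2, at 216, 195 and 169.9 CPM at day 0 and 90.9, 113 and 84.7 CPM at day 7. Lims1 and Lims2 thus moved in opposite directions, and the 2 days did not overlap for either.

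Of 30 noncollagen ligand genes, 27 were tested, 3 rose and 4 fell, against the same 13.8% and 10.8% of all genes, with a median of -0.16. Tnxb (log2 fold change 3.20, SE 0.33, adjusted p = 0.000951), a tenascin of collagen-rich tissue, Lama2 (log2 fold change 2.998, SE 0.46, adjusted p = 0.00402), the laminin chain of muscle and nerve basement membranes, and the hyaluronan synthase Has3 (log2 fold change 2.05, SE 0.45, adjusted p = 0.014) rose. Lama2 was low, at 0.470, 0.443 and 0.298 CPM at day 0 and 2.76, 2.64 and 4.84 CPM at day 7. Has3 was also low, at 0.751, 1.17 and 1.66 CPM at day 0 and 5.38, 2.23 and 8.77 CPM at day 7. The largest falls were those of Tnc (log2 fold change -3.20, SE 0.55, adjusted p = 0.00631), another tenascin and a ligand of Itga8 and Itga9, Has1 (log2 fold change -2.27, SE 0.46, adjusted p = 0.011) and Fn1 (log2 fold change -1.73, SE 0.45, adjusted p = 0.0261), the fibronectin gene, which was at 5684, 6823 and 2647 CPM at day 0 and 747, 2786 and 1339.8 CPM at day 7. Has1 was low, at 1.63, 3.61 and 1.92 CPM at day 0 and 0.558, 0.440 and 0.410 CPM at day 7. Lamc1, the common laminin gamma chain, fell as well (log2 fold change -1.33, SE 0.25, adjusted p = 0.00886). None of the 40 adaptor genes or 27 ligand genes was called in either knockdown line over both days. Few of all genes were: 0.113% higher and 0.305% lower in shNFIB, and 0.0119% and 0.0179% in shMLL1. The absence of calls therefore says little about these lists.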

How the data were processed

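RNA-seq was analysed from 6 libraries of C3H10T1/2 cells. Per the study's methods, the authors trimmed 100-base paired reads with Trimmomatic 0.39, mapped them to GRCm38 with HISAT2 2.2.1, kept mapping qualities over 30 with SAMtools 1.12, removed PCR duplicates and counted reads per gene with HTSeq 0.11.1. The authors deposited unnormalised counts, 1 row per Ensembl gene. The strand setting and annotation release are not given in the sources used here, so reads shared with overlapping genes could not be told apart. Opposite-strand noncoding genes share 7.66% of the exon bases of Itgb4, 6.93% of Sdc3, 5.90% of Itgav and 4.53% of Ddr1.

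Coordinates and exon lengths came from GENCODE for GRCm38, and promoter windows from RefSeq. Counts were scaled with TMM factors (edgeR 4.0.16, R 4.3.3) and fitted in 1 quasi-likelihood model over all 6 libraries with terms for line and day, on the 16742 genes left by edgeR's filter on low counts, with Benjamini-Hochberg adjustment over all of them. SE was the size of the fold change divided by the root of F. The lines pair the days, since both libraries of a line are the same cells, and their deviations from the day means correlated at 0.424 in shControl, 0.427 in shNFIB and 0.273 in shMLL1. P-values measure only the spread between these libraries. Intervals and floors cover counting error only, and counts under 3 were raised to 3 in ratios.

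As in the study, a call needed an adjusted p of at most 0.05 and a change of more than 2-fold. All 35 genes are described, and of the 2 pathway lists up to 3 called genes with the largest rise and 3 with the largest fall. Fblim1 and Lamc1 fall outside that rule and were added after their values were seen. The members and lists were chosen with earlier results of these data known. Tested on simulated counts at the spread seen (biological coefficient of variation 0.281, simulated at 0.3), 193 of 200 genes changed 4-fold between days and 146 of 200 changed 4-fold in the shNFIB line were called, of 16250 and 16253 genes. The simulation changed no genes of low expected count, gave all genes the same spread and put in no other line or day difference. The shares called need not hold for these libraries. Alternatives were DESeq2 1.42.0, other scalings, no filter, no line term, leaving out libraries, another fold limit and another gene length.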

Additional observations from a re-analysis of the deposited data

Results flagged for a closer look

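Itga8, Itgb3 and Sdc3 stood on opposite sides of shControl in the knockdown lines at day 0, each by over 2-fold. The log2 ratio to shControl was -1.48 in shNFIB and 1.11 in shMLL1 for Itga8, 1.08 and -1.33 for Itgb3, and 1.06 and -1.50 for Sdc3. Itga8 rested on 11, 31 and 63 counts in shNFIB, shControl and shMLL1, and the other genes on 334 or more. At day 7 the signs were the same and the ratios smaller, at -0.74 and 0.82 for Itga8, 0.71 and -0.78 for Itgb3, and 0.49 and -1.04 for Sdc3. These genes were flagged by their day 0 ratios, which favours smaller ratios at day 7. The share of all genes with such opposite day 0 ratios was not taken.

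Itgae had a day 7 to day 0 log2 ratio above 0 in shControl (0.85) and shMLL1 (1.92) and below 0 in shNFIB (-1.05), from 14 to 52 counts per library. The differences between the knockdown lines and between the day responses were not tested. Against shControl over both days, the quasi-likelihood test called none of the 4 genes in either line, and both lines are set against the same shControl libraries.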

How the results depend on the processing

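With 1 library per condition, the depth (21608680 to 34774066 counts) fixes the counting error but not the spread between cultures, and genes such as Itga4 and Itgb6 rest on few counts. Of 246 single-gene values under another setting, 206 kept their direction and call, 25 were newly called, 15 lost the call and 0 turned sign. These values cover only the receptors called over the days and those with the smallest p in each knockdown line. Such a choice favours a kept direction, and the setting without a fold limit could not lose a call. They do not describe the other receptors.

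Over the days, 2 to 4 receptors rose when 1 line was left out (2 without shControl, 3 without shMLL1, 4 without shNFIB), 8 to 10 fell, and 2410 to 4246 genes were called in all, against 4112. Without the line term, 4 rose and 6 fell, and Itga4, Itga11, Itgav and Itgb5 were not called (adjusted p = 0.0599, 0.148, 0.0969 and 0.0574). For this setting, and for the single-library pairs scaled by library size alone, the share over all genes is not given. The receptor counts under them therefore have no background to be read against. Library size alone moved the median of all genes by 0.147 in the day fit.

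The knockdown counts moved most. In shNFIB, 1 receptor was called higher and 3 lower without the filter on low counts and by DESeq2, with 687 and 560 genes in all against 70. Without the day term 0 were called. Leaving out 1 library gave 0 or 1 higher, 0 to 3 lower and 82 to 867 genes in all. In shMLL1, 1 was higher and 2 lower without the filter (Itgb8, Itga1 and Sdc3) and 1 higher and 1 lower by DESeq2, with 526 and 406 genes in all against 5. Again 0 were called without the day term. Leaving out 1 library gave 0 or 1 higher, 0 to 5 lower and 42 to 720 genes. The cause was not tested.

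A limit of 1.5-fold gave 20 receptors in shMLL1 at day 0 against 10, 21 in shNFIB at day 7 against 8, and 15 in shMLL1 at day 7 against 6, where 39.3%, 42.1% and 30.5% of all genes compared passed it. With the longest transcript as the length, Itga5 and Itgav made up 73.6 to 91.1% of the alpha chains.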
